A study of Mus musculus with 24 samples.

Results

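The immediate early genes and NR4A receptors followed here are 10 genes (Fos, Fosb, Junb, Egr1, Egr2, Nr4a1, Nr4a2, Nr4a3, Btg2 and Ier2). They were found by symbol among the 13162 genes that appear in any of the 5 tables the authors deposited, and no measured value entered that lookup. The set itself was chosen with earlier results of these data known. RNA was sequenced from interscapular brown adipose tissue, a depot that burns fuel to make heat, of male mice on a C57BL/6J background aged 10 to 12 weeks and killed at a fixed hour of the light cycle. KO mice carried floxed Hdac3 alleles and a Cre recombinase under the Ucp1 promoter, which is active in brown adipocytes, and Control mice carried the floxed alleles alone, so both genotypes share the floxed gene and they differ in the Cre transgene as well as in Hdac3. Mice of each genotype stayed in the standard room at 22 °C, or spent 24 h at 15 °C in an incubator and then 24 h or 7 d back at 22 °C. This gave 6 groups of 4 libraries (KO 22 °C, Control 22 °C, KO 24 h, Control 24 h, KO 7 d and Control 7 d) and 24 libraries altogether. The comparisons ask what a short cold exposure leaves behind in brown fat and what Hdac3, a histone deacetylase of nuclear receptor corepressor complexes, does in that.

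Immediate early genes are transcribed within minutes of a stimulus without new protein synthesis, and their messages decay quickly. In brown fat, noradrenaline acting on beta-adrenergic receptors raises cAMP, protein kinase A phosphorylates CREB at cAMP response elements, and this is a known route to Fos and the Nr4a genes, while serum response factor (SRF) acts at CArG boxes of Egr and Fos genes after growth factor signals. Fos, Fosb and Junb encode subunits of the AP-1 transcription factor. Egr1 and Egr2 encode zinc finger factors, Nr4a1, Nr4a2 and Nr4a3 encode orphan nuclear receptors that act without a known ligand, Btg2 encodes an antiproliferative cofactor of mRNA deadenylation, and Ier2 encodes a short-lived nuclear protein.

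The authors' tables give a mean level per group in RPKM (reads per kilobase of gene, scaled to library size in M reads, where M stands for mega). Because these means were deposited with 15 digits, the 24 library totals and the whole number of reads of a gene in each library could be rebuilt from them, and 60146 of 60204 means searched fitted exactly 1 set of 4 whole counts, against 0 of 2981 means shifted by a relative 1e-09. For values over 1500 reads chance fits are commoner: the KO 22 °C means of Fos, Junb, Egr1 and Nr4a1 each fitted 1 set, and of 10 shifted copies of each, 2, 1, 1 and 5 also fitted one. The totals ran from 4.64 to 12.54 M reads. In the shallowest library 1 RPKM equals 4.64 reads over 1 kb of gene, and library values carry counting error besides the error between animals. Rebuilt libraries can be tied to a group but not to a replicate number, so each is named by its total, and whether each came from its own mouse is not stated beyond the label of biological replicates. Library values carry none of the authors' normalization factors. Hdac3, the targeted gene, stood at 8.83, 8.27, 8.17 and 9.0 RPKM in the KO 22 °C libraries, against 24.8 to 28.4 RPKM in the Control 22 °C libraries, and all KO libraries lay below all Control libraries at each time. Ucp1, the defining gene of brown adipocytes, averaged 32.8 RPKM in KO 22 °C and 1607 RPKM in Control 22 °C as deposited, and between 2163 and 4966 RPKM in the 4 recovery groups. In whole tissue, fewer cells of a type and less RNA per cell cannot be told apart.

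Promoter windows are shown because CREB and SRF, named above, act at short motifs near the start sites of such genes. RefSeq (GRCm38.p6) gave windows of 300 bases, from 250 bases before to 50 after a start site, for 8 of the 10 genes, and Egr1 and Ier2 are named only. The windows printed 5′ to 3′ on the gene's strand are chr12:85473640-85473939 (plus strand, Fos), chr10:67537619-67537918 (plus, Egr2, 1 of its 5 windows), chr15:101266596-101266895 (plus, Nr4a1), chr2:57123954-57124253 (minus, Nr4a2), chr4:48045055-48045354 (plus, Nr4a3) and chr1:134079106-134079405 (minus, Btg2). Capitals mark the core of the cAMP response element (TGACG on either strand, which reads CGTCA on the other) and, in Egr2, a CArG box.
Fos: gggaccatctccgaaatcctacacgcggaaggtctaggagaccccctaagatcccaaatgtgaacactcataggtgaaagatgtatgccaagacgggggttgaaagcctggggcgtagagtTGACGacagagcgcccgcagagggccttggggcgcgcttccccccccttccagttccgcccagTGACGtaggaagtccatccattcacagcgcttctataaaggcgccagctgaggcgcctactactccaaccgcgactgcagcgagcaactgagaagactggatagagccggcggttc
Egr2: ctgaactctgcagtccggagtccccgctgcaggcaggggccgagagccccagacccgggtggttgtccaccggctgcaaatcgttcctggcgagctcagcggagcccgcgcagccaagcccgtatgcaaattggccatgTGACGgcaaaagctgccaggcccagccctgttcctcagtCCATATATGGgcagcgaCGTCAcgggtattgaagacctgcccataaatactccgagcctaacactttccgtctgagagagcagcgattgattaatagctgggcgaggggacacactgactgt
Nr4a1: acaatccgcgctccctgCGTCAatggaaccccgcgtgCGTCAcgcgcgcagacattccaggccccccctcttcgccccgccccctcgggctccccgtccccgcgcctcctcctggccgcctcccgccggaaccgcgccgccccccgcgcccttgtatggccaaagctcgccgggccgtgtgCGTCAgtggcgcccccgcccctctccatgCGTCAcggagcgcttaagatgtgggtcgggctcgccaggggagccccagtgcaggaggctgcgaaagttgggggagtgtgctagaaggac
Nr4a2: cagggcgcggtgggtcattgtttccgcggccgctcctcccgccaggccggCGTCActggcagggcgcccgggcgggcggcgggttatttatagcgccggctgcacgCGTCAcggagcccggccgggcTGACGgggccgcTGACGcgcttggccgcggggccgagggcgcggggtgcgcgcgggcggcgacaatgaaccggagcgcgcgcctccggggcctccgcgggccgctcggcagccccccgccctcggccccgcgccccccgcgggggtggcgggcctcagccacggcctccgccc
Nr4a3: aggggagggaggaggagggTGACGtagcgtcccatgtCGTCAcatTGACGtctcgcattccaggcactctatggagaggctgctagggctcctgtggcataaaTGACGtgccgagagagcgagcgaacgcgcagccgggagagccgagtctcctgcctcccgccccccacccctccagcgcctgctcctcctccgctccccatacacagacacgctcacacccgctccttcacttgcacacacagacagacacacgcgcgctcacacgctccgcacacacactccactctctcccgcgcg
Btg2: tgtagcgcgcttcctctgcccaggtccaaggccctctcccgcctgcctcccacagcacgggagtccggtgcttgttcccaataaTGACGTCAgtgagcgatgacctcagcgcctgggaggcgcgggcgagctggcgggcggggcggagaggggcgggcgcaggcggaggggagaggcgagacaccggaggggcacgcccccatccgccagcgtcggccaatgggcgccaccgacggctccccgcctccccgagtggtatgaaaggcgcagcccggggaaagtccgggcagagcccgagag

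The core TGACG was present in a window of all 8 genes, against 20.8% of 32851 RefSeq windows of the same length, both strands searched. Counts here are per gene, over any of its windows, and percentages are per window. Egr2 had several of the 12 windows of these genes, and not all of its windows held the core. Nr4a1, Nr4a2 and Nr4a3 held 4 copies each, and in Fos the copies began 129 and 66 bases before the start site. The full palindrome TGACGTCA, which contains the core on both strands, was in Btg2 alone of the 8 genes, against 1.79% of all windows. A CArG box was in Egr2 alone (1.63% of all windows), beginning 72 bases before the start site of the window shown. An EGR motif (GCGNGGGCG) was in 4 of the 8, Fosb, Nr4a1, Nr4a2 and Btg2, against 5.55% of all windows. The AP-1 motif TGANTCA (7.81% of all windows) and the NR4A monomer motif AAAGGTCA (1.51%) were in none of the 8. These are matches of letters in a short window, not sites shown to be bound.

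At 22 °C, KO brown fat held more immediate early and NR4A transcript on average than Control brown fat, and the libraries of each genotype differed widely. In the authors' deposited table, 8 of the 10 genes were higher in KO than in Control at an adjusted p under 0.05 (edgeR, Benjamini-Hochberg), where 16.3% of all 12710 listed genes were higher. The median log2 fold change of the 10 was 2.77, against -0.01 over all listed genes. Junb (adjusted p = 0.074) and Nr4a2 (adjusted p = 0.29) did not pass in the edgeR values of the authors' deposited table. Of the 9 genes with library values, none had all 4 KO libraries above all 4 Control libraries, which 6.17% of all genes had, and none had them all below, which 30.1% had. Such separations, here and below, were read in RPKM without further scaling between libraries.

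Among the AP-1 subunits, Fos and Junb were high in the same pair of KO libraries. Fos stood at 2.58, 0.802, 50.3 and 50.8 RPKM in the KO 22 °C libraries of 9.83, 9.53, 9.16 and 8.48 M reads, against 1.33, 6.00, 0.493 and 1.07 RPKM in the Control 22 °C libraries of 8.29, 7.88, 7.76 and 5.35 M reads. A pair of KO libraries lay far above every Control library, and the other pair lay within the Control range. The authors' deposited table gives Fos a log2 fold change of 3.82 with a rebuilt standard error of 1.00 (14.1-fold, edgeR adjusted p = 8e-04). Junb repeated the split, with 5.09, 4.56, 45.5 and 45.6 RPKM in the same KO libraries and 8.53, 28.1, 6.23 and 6.10 RPKM in the Control libraries. The lower pair of KO libraries was below all 4 Control libraries for Junb. Fosb rested on 39, 0, 58 and 68 reads in the KO libraries and on 5, 4, 2 and 4 reads in the Control libraries, so 3 of the 4 KO libraries were above all Control libraries and 1 held no read. For Fosb the authors' deposited table gives a 10.2-fold higher KO mean (edgeR adjusted p = 0.00988).

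For the EGR genes, the KO library of 9.83 M reads also lay above most Control libraries. Egr1 stood at 9.91, 3.004, 62.3 and 52.1 RPKM in KO 22 °C, against 1.96, 11.8, 0.545 and 1.52 RPKM in Control 22 °C. All 4 KO libraries exceeded 3 of the Control libraries, and the Control library of 7.88 M reads was above 2 of the KO libraries. Egr1 was 9.71-fold higher in KO in the authors' deposited table (edgeR adjusted p = 0.0025). Egr2 stood at 3.54, 0.248, 8.69 and 7.04 RPKM in KO 22 °C, against 0.366, 0.599, 0.130 and 0.315 RPKM in Control 22 °C. For Egr2, 3 KO libraries lay above every Control library and the library of 9.53 M reads lay among them, and the authors' deposited table gives a 16.4-fold difference (edgeR adjusted p = 5.77e-05).

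Among the NR4A receptors the genotypes differed least for Nr4a2. Nr4a1 stood at 58.0, 1.14, 84.3 and 62.0 RPKM in KO 22 °C, against 22.9, 31.9, 3.44 and 31.3 RPKM in Control 22 °C. Each genotype therefore had 3 high libraries and 1 low one for Nr4a1, and the 3 high KO libraries were above all Control libraries. The authors' deposited table gives Nr4a1 a 2.80-fold difference (edgeR adjusted p = 0.0452). Nr4a3 stood at 4.38, 0.334, 9.39 and 5.82 RPKM in KO 22 °C, against 0.769, 0.269, 0.137 and 2.38 RPKM in Control 22 °C, and was 6.92-fold higher in KO in the authors' deposited table (edgeR adjusted p = 0.00106). Nr4a2 stood at 3.16, 0.219, 3.72 and 2.93 RPKM in KO 22 °C and at 1.33, 1.48, 1.501 and 3.35 RPKM in Control 22 °C, so the Control libraries lay within the KO range.

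Ier2 stood at 9.76, 5.03, 50.1 and 34.6 RPKM in KO 22 °C, against 5.31, 9.33, 2.96 and 6.88 RPKM in Control 22 °C. For Ier2 the authors' deposited table gives a 4.88-fold difference (edgeR adjusted p = 1.12e-05). Btg2 had the highest mean of the 10 in KO, 73.9 RPKM, against 13.2 RPKM in Control as deposited. Btg2 was 6.73-fold higher in KO in the authors' deposited table, the smallest adjusted p of the 10 genes (edgeR, 9.18e-07). More than 1 set of counts fitted the KO mean of Btg2, so its KO libraries are not given, and its Control libraries held 9.90, 28.7, 6.02 and 8.19 RPKM.

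**Figure D1:**
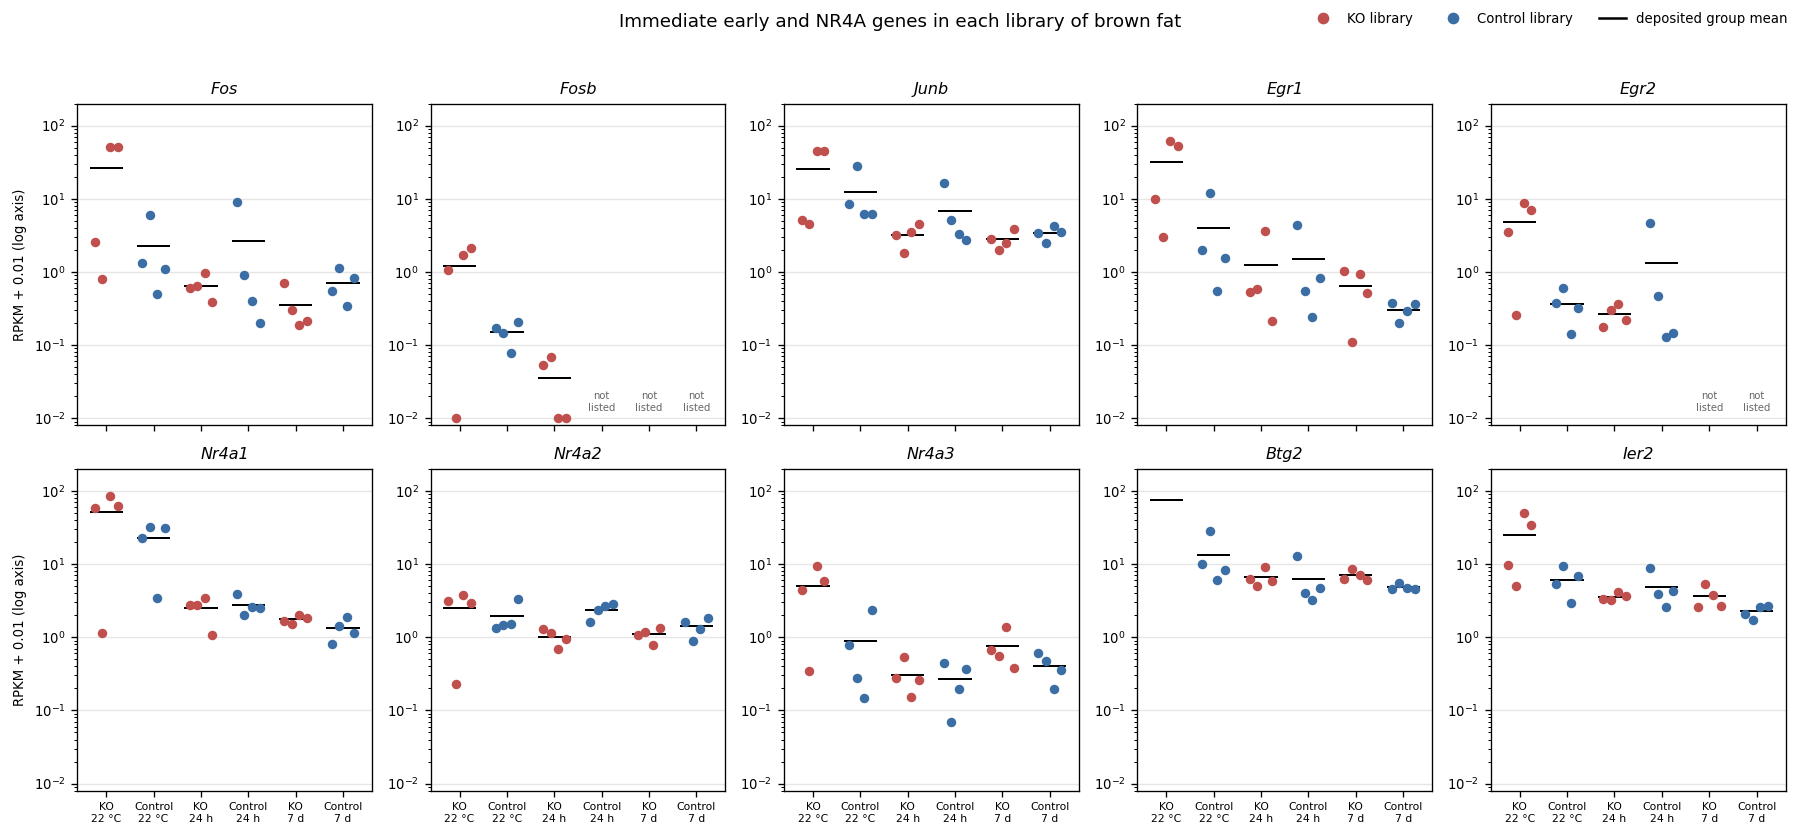
RPKM + 0.01 (log axis) of each of the 10 genes in the rebuilt libraries of the 6 groups, KO in red and Control in blue, points within a group running from the deepest to the shallowest library, with a black line at the deposited group mean. The KO libraries at 22 °C spread over more than 5-fold for all 9 genes with library values, and at 7 d Nr4a1 lies between 1.52 and 2.0 RPKM in KO and between 0.805 and 1.89 RPKM in Control.

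The same KO library was lowest for all of these genes. Of 9 genes with library values in KO 22 °C, 9 were lowest in the library of 9.53 M reads, in which 17.7% of all genes averaging at least 1 RPKM were lowest. The library of 9.16 M reads was highest for 6 of them and that of 8.48 M reads for 3, against 16.7% and 24.6% of all genes. All 9 differed by more than 5-fold between the highest and the lowest KO library, which 3.63% of 8118 genes did. In Control 22 °C, 3 of 7 such genes differed that much, against 3.66% of all genes. The Control library of 7.88 M reads was highest for 6 of the 7, against 25.4% of all genes. The Control library of 7.76 M reads was lowest for 5 of the 7, and also for 42.1% of all genes. In the KO library of 9.53 M reads Hdac3 was at 8.27 RPKM, within the range of the other 3, and Ucp1 was at 9.38 RPKM, against 28.4, 68.4 and 24.8 RPKM in the KO libraries of 9.83, 9.16 and 8.48 M reads.

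This spread carried into the tests. With limma on log2(RPKM + 0.1) of the rebuilt libraries, fitted across 9754 genes, 1 of 9 genes was higher in KO at 22 °C at an adjusted p under 0.05 (Egr2, log2 fold change 3.09 ± 0.92 (SE), adjusted p = 0.0354), where 12.2% of all genes were higher. Without the KO library of 9.53 M reads limma called 8 of the 9 genes (all but Junb), and without any other single KO library it called none. In those runs it called 22.7% of all genes without the library of 9.53 M reads, and 20.1% to 21.3% without another, in either direction. The Egr2 call was lost without any 1 Control library. An exact two-sided permutation test of the 8 libraries, whose smallest possible p is 0.0286, reached that level for none of the 9 genes, and gave p = 0.0571 for Egr1 and p = 0.229 for Fos, while 29.6% of 9623 genes had a p up to 0.05. The centred log2 ratio is that of the group means + 0.1 RPKM, less its median over all genes. Leaving out the Control library of 7.88 M reads moved this ratio for Fos to 4.87, against 3.74 with all libraries, that of Egr1 to 4.71, against 3.22, and that of Junb to 2.08, against 1.28. Leaving out the Control library of 5.35 M reads moved Nr4a3 to 3.61, against 2.60, and leaving out the KO library of 9.16 M reads moved Ier2 to 1.66, against 2.25.

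After 24 h of recovery, all 10 genes were lower in KO brown fat than in KO brown fat kept at 22 °C. In the authors' deposited table, 10 of 10 were lower at an adjusted p under 0.05 (edgeR), where 19.8% of 12577 listed genes were lower. Their median log2 fold change was -4.18, against -0.02 over all listed genes. Fos stood at 0.598, 0.628, 0.949 and 0.373 RPKM in the KO 24 h libraries of 11.98, 9.13, 7.55 and 6.40 M reads, and so was below 3 of the 4 KO 22 °C libraries in every case. The authors' deposited table gives Fos a log2 fold change of -5.39 (edgeR adjusted p = 4.97e-06). Nr4a1 fell to 2.77, 2.74, 3.42 and 1.07 RPKM in KO 24 h, with only the KO 22 °C library of 9.53 M reads at the same level, and the authors' deposited table gives a 21.3-fold difference (edgeR adjusted p = 1.71e-09). Egr1 stood at 0.516, 0.571, 3.58 and 0.203 RPKM in KO 24 h, and without the KO 24 h library of 7.55 M reads its centred log2 ratio was -5.92, against -4.61 with it.

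In RPKM, Junb and Ier2 were the genes whose libraries did not overlap. With each library scaled to its median, Junb overlapped, since its exact permutation p was 0.0571 and full separation gives 0.0286. Junb stood at 3.22, 1.79, 3.46 and 4.50 RPKM in KO 24 h, against a lowest KO 22 °C library of 4.56 RPKM. Ier2 stood at 3.29, 3.17, 4.09 and 3.70 RPKM in KO 24 h, against a lowest KO 22 °C library of 5.03 RPKM. Such a separation downwards was seen in 2 of 9 genes, against 16.2% of 9278 genes. Nr4a2 had the smallest change of the 10, with 1.30, 1.15, 0.673 and 0.934 RPKM in KO 24 h and a 2.55-fold lower mean in the authors' deposited table (edgeR adjusted p = 0.0106). Btg2 averaged 6.56 RPKM in KO 24 h, against 73.9 RPKM in KO 22 °C, and was 11.6-fold lower in the authors' deposited table (edgeR adjusted p = 4.35e-10). Fosb had 2, 2, 0 and 0 reads in KO 24 h.

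With limma on the rebuilt libraries 5 of 9 genes were lower in KO 24 h than in KO 22 °C (Fosb, Egr1, Egr2, Nr4a3 and Ier2, adjusted p from 0.0121 to 0.0498), where 14.2% of 9431 genes were lower. Without the KO 22 °C library of 9.53 M reads limma called 9 of 9, without either the library of 9.16 or that of 8.48 M reads it called Egr1 alone, and without the library of 9.83 M reads it called 4. Without a KO 24 h library it called 1 or 2 of 9, Egr1 each time, and over all these runs 27.5% to 31.5% of all genes in either direction. Without the KO 22 °C library of 9.16 M reads, Ier2 had a centred log2 ratio of -2.19, against -2.78 with it. The exact permutation test reached its smallest p of 0.0286 for Ier2 alone, where 35.2% of all genes had a p up to 0.05.

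In Control brown fat, Nr4a1 was the 1 gene that fell past the threshold after 24 h. In the authors' deposited table, 1 of 9 listed genes, Nr4a1, was lower in Control 24 h than in Control 22 °C (edgeR), where 8.67% of 12830 listed genes were lower and 13.1% higher. Fosb was not listed in this comparison. Of the 9, 6 had a negative log2 fold change, with a median of -0.81 against 0.01 over all listed genes. Nr4a1 stood at 3.91, 1.99, 2.56 and 2.53 RPKM in the Control 24 h libraries of 9.81, 8.93, 8.51 and 7.51 M reads, against 22.9, 31.9, 3.44 and 31.3 RPKM in Control 22 °C. The Control 22 °C library of 7.76 M reads was thus level with Control 24 h, and the other 3 held 22.9 RPKM or more. The authors' deposited table gives Nr4a1 a 7.69-fold lower mean (edgeR adjusted p = 1.15e-04), and limma on the rebuilt libraries gives a log2 fold change of -2.52 ± 0.60 (SE, adjusted p = 0.0366), where it called 3.75% of all genes lower. Limma lost this call without each of 7 of the 8 libraries, and kept it without the Control 22 °C library of 7.76 M reads. Over these runs it called 1.82% to 10.3% of all genes in either direction, the most without that library.

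A single Control 24 h library held most of the rest. Fos stood at 9.16, 0.910, 0.393 and 0.191 RPKM in Control 24 h, Egr1 at 4.38, 0.547, 0.230 and 0.823 RPKM, and Egr2 at 4.61, 0.453, 0.119 and 0.135 RPKM. The library of 9.81 M reads was highest for 7 of 8 genes averaging at least 1 RPKM, and it was also highest for 53.3% of all 8229 genes. Without it the centred log2 ratio of Fos between Control 24 h and Control 22 °C was -1.91, against 0.30 with it, that of Egr2 was -0.38, against 1.71, and that of Junb was -1.64, against -0.77. Without the Control 22 °C library of 7.88 M reads, Egr1 stood at 0.19, against -1.30, and Btg2 at -0.32, against -1.03. Without the Control 22 °C library of 5.35 M reads Nr4a3 stood at -0.41, against -1.42. None of these was past the threshold with all libraries. In RPKM, no gene had separate libraries in the 2 Control groups, where 6.7% of all genes were separate upwards and 11.1% downwards. The exact permutation test, on values scaled to each library's median, reached 0.0286 for Nr4a1 alone, where 18.7% of genes had a p up to 0.05. Nr4a1 was therefore separate after that scaling, though not in RPKM.

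After recovery none of the listed genes passed the threshold between genotypes in the authors' deposited tables. At 24 h, 0 of 8 listed genes were called between KO and Control in the authors' deposited table (edgeR), where 10.5% of 12657 listed genes were called higher and 7.96% lower in KO. At an unadjusted edgeR p under 0.05 there were 2 of 8 (Egr2 and Nr4a2). The share of all genes at an unadjusted edgeR or limma p is not given, here or below, so such counts are descriptions. Egr2 was 4.33-fold lower in KO (adjusted p = 0.0742) and Nr4a2 2.13-fold lower (adjusted p = 0.0801) in the edgeR values of the authors' deposited table. For Egr2 the centred log2 ratio was 0.28 without the Control library of 9.81 M reads, against -1.81 with it, and for Fos it was 0.49, against -1.72. For Egr1 it was 1.24 without that library, against -0.09 with it, and for Junb it was -0.01, against -0.88. For Nr4a2 it was -1.11, against -0.97, and Nr4a2 was the gene whose 4 KO libraries all lay below the Control libraries (0.673 to 1.30 RPKM in KO, 1.62 to 2.82 RPKM in Control), a separation that 18% of all genes showed. Without that library the ratio of Btg2 was 0.90, against 0.27. Limma called 4.96% of all genes higher and 2.55% lower in KO at 24 h. It called none of 9 of these genes, with Nr4a2 alone at an unadjusted p under 0.05, and called Nr4a2 without that Control library. The exact permutation test gave none of 8 genes a p up to 0.05, against 16.6% of all genes.

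At 7 d, 0 of 8 listed genes were called between KO and Control in the authors' deposited table (edgeR), where 9.18% of 12467 listed genes were called higher and 6.14% lower in KO. None of the 8 had an unadjusted edgeR p under 0.05. Btg2 stood at 6.30, 8.55, 7.07 and 5.97 RPKM in the KO 7 d libraries of 10.40, 9.86, 8.08 and 7.11 M reads, against 4.50, 5.48, 4.65 and 4.55 RPKM in the Control 7 d libraries of 12.54, 6.87, 5.79 and 4.64 M reads. All KO libraries were above all Control libraries for Btg2, which 5.59% of all genes showed. For Btg2 the difference was 1.52-fold with an adjusted p of 0.49 in the authors' deposited table (edgeR), and limma on the rebuilt libraries gave a log2 fold change of 0.63 ± 0.13 (SE, adjusted p = 0.0199), where it called 4.74% of all genes higher. Limma lost the Btg2 call without the KO library of 8.08 M reads and without the Control library of 12.54 or of 5.79 M reads. The exact permutation test gave its smallest p of 0.0286 for Btg2 and for Ier2, where 17.7% of all genes had a p up to 0.05.

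The log2 fold change of KO over Control was lower after recovery for some of the genes in 1 test and not in the other. The deposited log2 fold changes of KO over Control at 24 h were compared with those at 22 °C, which share no library. The test was a z test with errors rebuilt from the deposited edgeR p, with Benjamini-Hochberg adjustment over all genes. All 6 genes tested had a lower value at 24 h at an adjusted p under 0.05, where 7.39% of 10734 genes did. Fosb and Nr4a3 were not listed at 24 h, and no error could be rebuilt for Egr1 and Nr4a1. On simulated data this z test called 152 of 184 genes changed by 4 log2, and 20 of its calls (11.6%) were of unchanged genes. The 6 were Fos with a difference of -5.63 ± 1.38 (SE), Egr2 with -6.15 ± 1.25, Ier2 with -2.58 ± 0.68, Btg2 with -2.48 ± 0.71, Junb with -2.18 ± 0.83 and Nr4a2 with -1.75 ± 0.65. All but Btg2 had a negative value at 24 h, and Nr4a2 went from 0.66 to -1.09, a larger difference of opposite sign. Fos (-1.81) and Egr2 (-2.12) also changed sign, but without the Control 24 h library of 9.81 M reads their centred log2 ratios at 24 h were 0.49 and 0.28. At 7 d against 22 °C, Fos (-4.76 ± 1.44) and Btg2 (-2.14 ± 0.71) passed of 8 genes, where 5.29% of 10591 genes did, and between 7 d and 24 h none of 5 genes passed, where 0.0863% of genes had a lower and 0.115% a higher value. Limma on the rebuilt libraries called none of 8 genes for the 24 h difference, with -3.15 ± 1.74 (SE) for Fos and -3.66 ± 1.35 for Egr2 and adjusted p from 0.108 to 0.788, where it called 2.88% of 8997 genes lower and 5.95% higher. It called none of 7 genes for the 7 d difference, where it called 2.92% of all genes lower and 5.24% higher. At an unadjusted p under 0.05, limma had 3 of 8 genes at 24 h and 1 of 7 at 7 d. The share of all genes at that level is not given, so these counts are descriptions.

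At 7 d the means of all 8 listed genes were below those at 22 °C in both genotypes, and no gene averaging at least 1 RPKM spread over 5-fold within a group. No deposited table compares 7 d with 22 °C, so these values come from the deposited means and the rebuilt libraries. In KO, the median centred log2 ratio of 8 genes at 7 d over 22 °C was -3.31. Fos stood at 0.689, 0.291, 0.178 and 0.202 RPKM in KO 7 d, below every KO 22 °C library. Egr1 stood at 1.03, 0.0990, 0.927 and 0.503 RPKM and Junb at 2.82, 1.98, 2.49 and 3.82 RPKM in KO 7 d, also below every KO 22 °C library. Such a separation was seen in 14.2% of 9001 genes, and the libraries of Nr4a1, Nr4a2, Nr4a3 and Ier2 overlapped. Limma called 5 of 7 genes lower (Fos, Junb, Egr1, Nr4a1 and Ier2, adjusted p from 0.00618 to 0.0443), where 12.7% of 9001 genes were lower and 19.5% higher. It called 7 of 7 without the KO 22 °C library of 9.53 M reads, 4 without that of 9.83 M reads, Egr1 alone without that of 9.16 or 8.48 M reads, and 1 or 2 without a KO 7 d library, with 24.8% to 30.8% of all genes called in either direction over these runs.

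In Control, the median centred log2 ratio of 8 genes at 7 d over 22 °C was -1.38. Nr4a1 stood at 0.805, 1.41, 1.89 and 1.13 RPKM in Control 7 d, below all Control 22 °C libraries, and limma gave a log2 fold change of -3.47 ± 0.62 (SE, adjusted p = 0.022), the 1 gene of 8 that it called, where 1.41% of 9618 genes were lower and 3.25% higher. That call was lost without any 1 library other than the Control 22 °C library of 7.76 M reads. Over these runs limma called 0.218% to 9.70% of all genes in either direction, the most without that library. Junb, Egr1, Btg2 and Ier2 also had all Control 7 d libraries below all Control 22 °C libraries, so 5 of 8 genes were separate, where 12.1% of 9618 genes were, with limma adjusted p of 0.0994, 0.0897, 0.153 and 0.0601. Between 7 d and 24 h, limma called none of 8 genes in either genotype (0.357% of all genes lower in KO and 0.246% in Control). At an unadjusted p under 0.05 it had 1 of 8 in KO (Nr4a3) and 3 of 8 in Control (Nr4a1, Nr4a2 and Ier2). These counts too are descriptions without a share of all genes.

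Other immediate early genes were counted too. Of 36 such genes, 34 were listed at 22 °C, and 16 were higher and 2 lower in KO than in Control in the authors' deposited table (edgeR, adjusted p under 0.05), where 16.3% of all listed genes were higher and 18% lower. Their median log2 fold change was 0.79, against -0.01 over all listed genes. Plk3, a stress-responsive kinase, was 9.76-fold higher in KO (adjusted p = 6.54e-08), Arc, best known from synapses, 6.31-fold (adjusted p = 9.19e-05) and the small Maf protein Maff 4.92-fold (adjusted p = 4.78e-08) in the edgeR values of the authors' deposited table. Rgs2, an inhibitor of Gq signalling, was 3.37-fold lower in KO (edgeR adjusted p = 3.77e-12 in the authors' deposited table). Of 32 genes of this list averaging at least 1 RPKM in KO 22 °C, 27 were lowest in the library of 9.53 M reads, against 17.7% of all genes. The highest library was that of 9.16 M reads for 13 of them and that of 9.83 M reads for 11, against 16.7% and 20.3% of all genes. The library of 9.83 M reads was highest for none of the 9 genes above. Cyr61, a secreted matrix protein that SRF regulates, stood at 14.1, 5.79, 85.2 and 72.8 RPKM in KO 22 °C and at 8.63, 28.2, 4.51 and 5.53 RPKM in Control 22 °C. Limma on the rebuilt libraries called 9 of 33 higher and 1 lower in KO at 22 °C, where it called 12.2% of all genes higher and 13.9% lower.

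In KO brown fat 24 h after the cold, 21 of 34 other immediate early genes were lower and 3 higher than in KO 22 °C in the authors' deposited table (edgeR), where 19.8% of all listed genes were lower and 22.1% higher. Their median log2 fold change was -1.36, against -0.02 over all genes. Arc was 16.7-fold, Cyr61 16.2-fold, Maff 5.19-fold and the clock gene Per1 2.57-fold lower there, with edgeR adjusted p from 4.05e-09 to 1.49e-08 in the authors' deposited table. In Control, 5 of 33 were lower and 4 higher after 24 h, with a median of -0.01, where 8.67% of all listed genes were lower and 13.1% higher. Limma on the rebuilt libraries called 14 of 34 lower and 3 higher in KO 24 h over KO 22 °C, where it called 14.2% of all genes lower and 20% higher. In Control it called 0 of 32 lower and 2 higher, against 3.75% and 4.92% of all genes. At 7 d, 6 of 31 were higher and 1 lower in KO than in Control, where 9.18% of all listed genes were higher and 6.14% lower. The higher genes included Plk3 (8.12-fold, adjusted p = 1.01e-05) and Jun (4.15-fold, adjusted p = 1.48e-04), which codes for the main partner of Fos, in the edgeR values of the authors' deposited table. At 24 h, 2 of 33 were higher and 6 lower in KO, where 10.5% of all listed genes were higher and 7.96% lower.

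**Figure D2:**
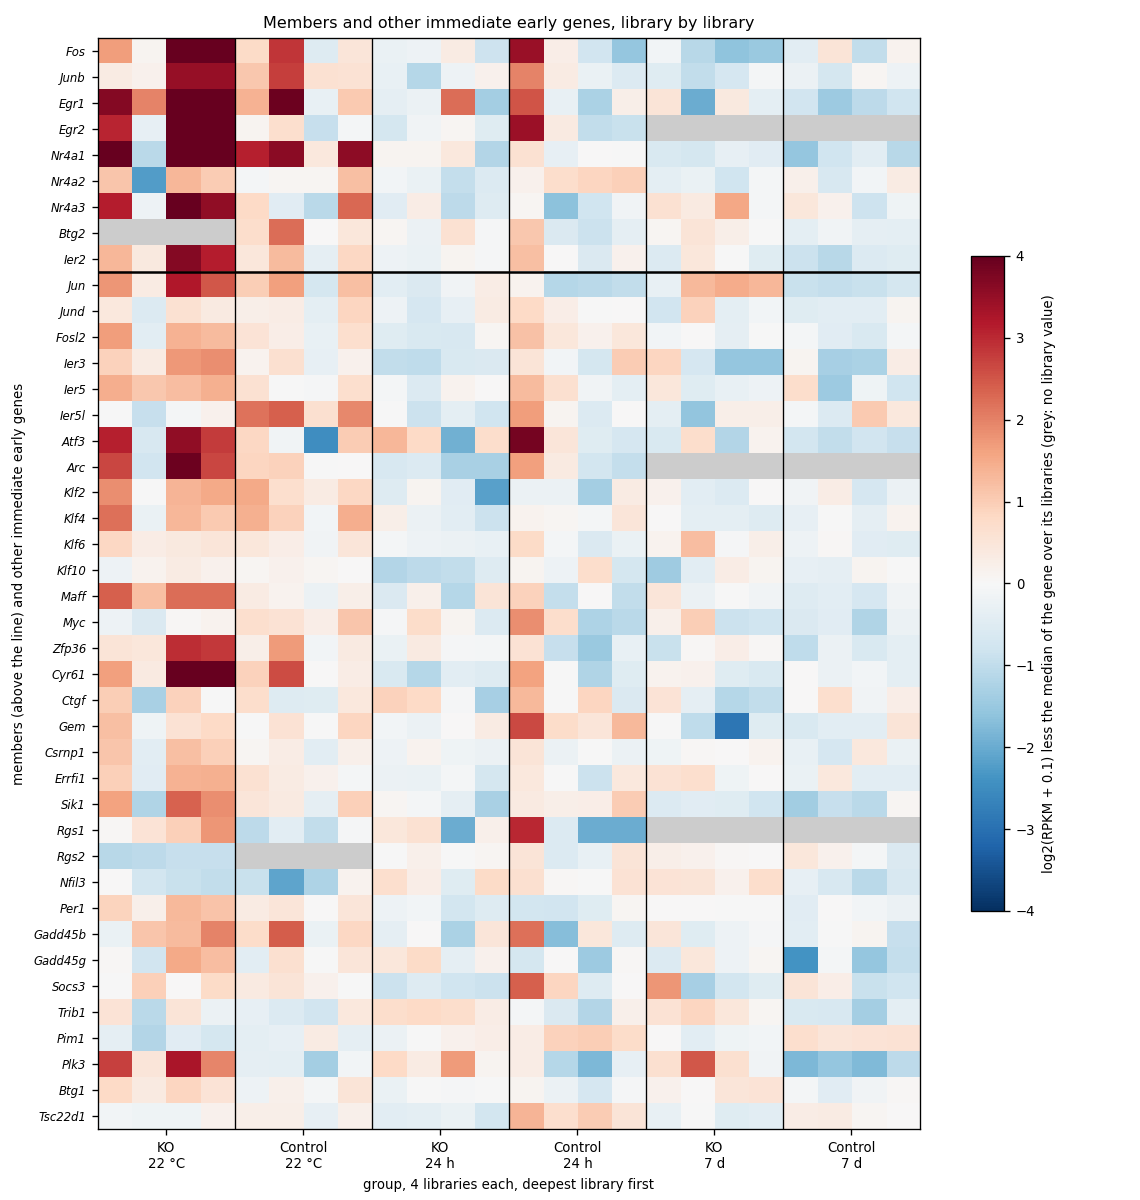
Log2(RPKM + 0.1) less the gene's median over its libraries, for 9 of the 10 genes (above the line) and 33 other immediate early genes, in the 24 libraries ordered by group and, within a group, from the deepest library, with colours capped at 4 in either direction and grey for groups without a library value. The second KO library at 22 °C, of 9.53 M reads, is pale beside the other 3, and the first Control library at 24 h, of 9.81 M reads, stands out in its group.

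Feedback genes, upstream regulators and NR4A partners were counted in the same way, where 16.3% of all listed genes were higher and 18% lower in KO than in Control at 22 °C. Of the feedback phosphatases and Sprouty genes, which limit MAP kinase signalling, 4 of 11 were higher and 0 lower in KO than in Control at 22 °C in the authors' deposited table, with Spry4 2.35-fold (edgeR adjusted p = 0.00254), Dusp5 4.30-fold (edgeR adjusted p = 0.0085) and Dusp1 3.04-fold (edgeR adjusted p = 0.00976) higher. Dusp1 stood at 19.7, 4.97, 49.7 and 32.0 RPKM in the KO libraries and at 10.2, 13.9, 4.11 and 14.1 RPKM in the Control libraries. Among 20 SRF and CREB regulators, Srf was the 1 gene higher in KO at 22 °C (1.74-fold, edgeR adjusted p = 0.00408 in the authors' deposited table) and none was lower. In KO, the protein kinase A subunits Prkaca and Prkar2b were each 1.77-fold higher at 24 h than at 22 °C in the authors' deposited table (edgeR adjusted p = 1.44e-09 and 4.84e-09). In KO, Srf was 2.72-fold lower at 24 h than at 22 °C in the authors' deposited table (edgeR adjusted p = 6.17e-08). Of 9 NR4A partners and corepressors, 5 were higher and 2 lower in KO at 22 °C. This list includes Hdac3, the targeted gene, which is 1 of the 2 lower by design. Rxra, a receptor that pairs with Nr4a1 and Nr4a2, was 2.90-fold higher (edgeR adjusted p = 1.02e-31 in the authors' deposited table). The corepressor subunits Tbl1x (3.51-fold) and Tbl1xr1 (2.73-fold), which sit in the complex with Hdac3, were also higher, with edgeR adjusted p of 2.22e-42 and 4.82e-25 in the authors' deposited table.

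Markers of other cells and states were read in the same libraries. In the KO 22 °C libraries of 9.83, 9.53, 9.16 and 8.48 M reads, 7 of the 10 genes with counts in all 24 libraries summed to 222.6, 31.2, 695 and 577 RPM (reads per M reads), and 30 other immediate early genes to 998, 531, 1497 and 1227. Endothelial markers summed to 335, 360.4, 387 and 375 there, heat shock genes to 140.3, 108, 138.5 and 125, and macrophage markers to 146, 232, 149 and 182. Glucocorticoid response genes, 7 of the 9 without Mt1 and Pdk4, summed to 303, 261, 406 and 316, against 225 to 234 in Control 22 °C. In the authors' deposited table (edgeR) 5 of 9 were higher and 1 lower in KO, where 16.3% of all listed genes were higher and 18% lower. Pdk4, a kinase that restrains glucose oxidation, was 2.66-fold lower (169.8 RPKM in KO and 538 RPKM in Control, edgeR adjusted p = 1.19e-07). Fkbp5, a chaperone that glucocorticoids induce, was 2.96-fold higher (edgeR adjusted p = 2.73e-05). Skeletal muscle markers were near 0 in most libraries and summed to 358 in the KO library of 8.48 M reads and to 424 in the Control library of 8.29 M reads. After recovery they summed to 308 in a KO 24 h library, 690.5 in a Control 24 h library, 1867 in a KO 7 d library and 2092 in a Control 7 d library. In Control 24 h, macrophage markers summed to 461 and 392 in the libraries of 9.81 and 8.93 M reads, against 177 and 120.2 in the others. Of these markers 8 of 9 were higher than at 22 °C in the authors' deposited table (edgeR), where 13.1% of all listed genes were higher. Limma on the rebuilt libraries called 0 of 9, where it called 4.92% of all genes higher. The part of these lists in the results on immediate early genes was not tested.

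**Figure D3:**
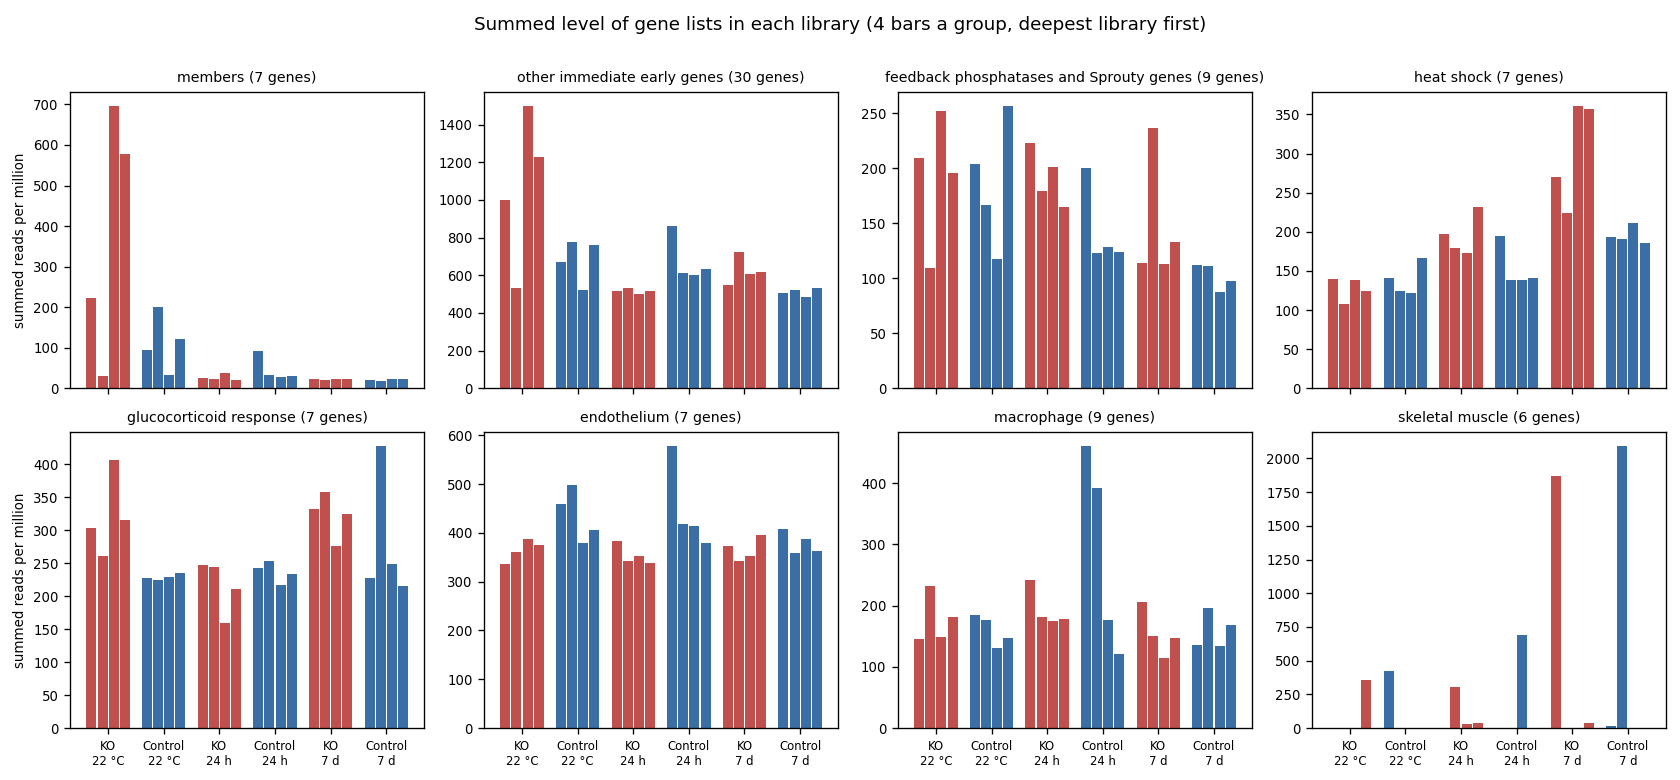
Summed RPM (reads per M reads) of 8 gene lists in each library (red KO, blue Control, 4 bars a group from the deepest library), over the genes with counts in all 24 libraries. The sum over 7 of the 10 genes reaches 695 in 1 KO library at 22 °C and is at most 36.6 in every KO library after recovery, while heat shock sums reach 360.4 in 1 KO library at 7 d and muscle sums peak in single libraries.

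Over the 7 genes with counts in all 24 libraries, Fos followed Junb most closely (Pearson r = 0.90 of log2 values) and Egr1 followed Ier2 (r = 0.90), while Nr4a2 was least like the other 6, with r from 0.30 to 0.58. The genes most like the average profile of 8 of the 10 over the 6 group means were Gas6, Vav3, Tnfrsf14, Emd, Spty2d1, Dnase1l1, Phldb1 and Bid (r from 0.99 to 1.00, 11046 genes compared). Over the 24 libraries, with a profile of 7 of the 10, they were Cyr61 (r = 0.93), Sema4c, Emd, Cldn5, Srf, Zyx, Sik1 and Zfp36 (r from 0.86 to 0.89, 7429 genes compared). These points share groups and libraries, and the values are descriptions.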

How the data were processed

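The deposited tables hold, per comparison, log2 fold changes, p-values and adjusted p-values, and mean RPKM per group as the authors made them; per the submitters' processing notes STAR, featureCounts, edgeR and the mm9 build were used, and versions, strand and multi-mapping settings are not given in the sources used here. A gene is listed where its higher mean is at least 0.5 RPKM. The authors' adjusted p is the main test (threshold 0.05), since no file holds library counts and the planned count test was not run. The 10 genes and all lists were chosen with earlier results of these data known. The 10 genes are given in every comparison, and genes named from a list are among its 4 with the smallest deposited p past the threshold in that comparison; which of the 4 are printed, and the library values of Cyr61 and Dusp1, were chosen after seeing values.

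Whole counts and totals per library were rebuilt from the deposited means, an approach added after seeing the data, with Python 3.11.15 and numpy 2.4.6. Library values were tested with limma 3.58.1 in R 4.3.3 on log2(RPKM + 0.1) less each library's median, and by exact permutation of the same values. Overlap and separation of libraries were read in RPKM without that scaling. P-values measure the spread between libraries. On simulated data limma called 198 of 200 genes raised by 3 log2 among 9000, and 4.81% of its calls were of unchanged genes. The simulated spread between libraries was smaller than that of these genes at 22 °C. The simulation therefore does not give the power of limma for them. Bonferroni adjustment, other thresholds, pseudocounts, centring and leaving out each library were tried. Depth limits values of a few reads.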

Additional observations from a re-analysis of the deposited data

Results flagged for a closer look

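Of 54 sets of 4 libraries examined in RPKM for a library far from the other 3 by Dixon's criterion, 10 had one. Independent sets of normal values would give about 1 in 20. These sets share libraries and RPKM is skewed upwards, so no excess over chance can be read from the count. In Control 22 °C the library apart held 6.00 RPKM for Fos, 28.1 RPKM for Junb and 11.8 RPKM for Egr1, each the library of 7.88 M reads, and 3.35 RPKM for Nr4a2, the library of 5.35 M reads. In Control 24 h the library of 9.81 M reads stood apart with 9.16 RPKM for Fos, 4.38 RPKM for Egr1, 4.61 RPKM for Egr2 and 12.9 RPKM for Btg2. In KO 24 h the library of 7.55 M reads held 3.58 RPKM for Egr1, and in Control 7 d the library of 6.87 M reads held 5.48 RPKM for Btg2.

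The KO over Control log2 fold change differed between 24 h and 22 °C by -5.63 for Fos, -2.18 for Junb, -6.15 for Egr2, -1.75 for Nr4a2, -2.48 for Btg2 and -2.58 for Ier2. Between 7 d and 22 °C it differed by -4.76 for Fos and -2.14 for Btg2. These passed the z test on deposited values, and limma on the rebuilt libraries called none of those it could test.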

How the results depend on the processing

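With Bonferroni adjustment the authors' p-values called 0 genes in Control 24 h over Control 22 °C and 2 in KO over Control at 22 °C, and a threshold of 0.10 called 2 in KO over Control at 24 h. The share of all listed genes called under either rule is not given, so these counts are descriptions. By exact permutation 1 gene passed in KO 24 h over KO 22 °C, 0 in KO over Control at 22 °C and 2 at 7 d. Limma called 5, 1 and 1 in those comparisons, and 0 for the differences of 24 h and of 7 d from 22 °C. Leaving out 1 library at a time, limma called 1 to 9 genes in KO 24 h over KO 22 °C, 0 to 8 in KO over Control at 22 °C, 0 to 1 in Control 24 h over Control 22 °C, 0 to 1 in KO over Control at 24 h and at 7 d, 1 to 7 in KO 7 d over KO 22 °C and 0 to 3 in Control 7 d over Control 22 °C. In the same order, it called 27.5% to 31.5%, 20.1% to 24.7%, 1.82% to 10.3%, 3.03% to 6.81%, 3.72% to 6.59%, 24.8% to 30.8% and 0.218% to 9.70% of all genes in either direction. The median log2 ratio of KO 7 d over KO 22 °C was -3.05 with a pseudocount of 1. That of Control 7 d over Control 22 °C was -1.22 with a pseudocount of 0.5, -1.12 with 1 and -1.49 without centring, and that of Control 7 d over Control 24 h was -0.83 with 0.5 and -0.72 with 1. The cause was not tested. No paired analysis was possible because the rebuilt libraries and the table columns carry no replicate numbers.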

Other observations

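Other gene lists were counted in the authors' deposited tables at an edgeR adjusted p under 0.05, in KO over Control at 22 °C, where 16.3% of all listed genes were higher and 18% lower. Of 8 brown adipocyte genes 2 were higher and 4 lower, with Cox7a1, a subunit of respiratory complex IV, 13.9-fold lower (adjusted p = 1.48e-77) and the beta3-adrenergic receptor gene Adrb3 3.13-fold higher (adjusted p = 1.81e-10). Of 6 genes shared by adipocytes, 5 were higher and 0 lower, with the lipid droplet gene Cidec 4.31-fold higher (adjusted p = 5.05e-42). Macrophage and endothelial markers had 1 of 9 and 1 of 8 higher and 0 lower. Fibroblast, skeletal muscle, erythroid, neutrophil and Schwann or neuronal markers had 0 called of 5, 8, 5, 3 and 2 listed. Of 5 smooth muscle and pericyte markers 1 was lower, and of 4 lymphocyte markers only Cd3e was listed, 4.30-fold higher (adjusted p = 0.00685). Heat shock genes had 0 of 8 called at 22 °C, and 4 of 9 were higher in KO at 7 d, where 9.18% of all listed genes were higher. Hsp90aa1 was 2.25-fold higher there (edgeR adjusted p = 2.24e-07).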
